A study of Mus musculus with 32 samples.

Results

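Cholesterol is made, taken up, stored and exported by the liver, and 32 genes of these steps were followed in mouse liver on a methionine and choline deficient (MCD) diet with and without a GLP-1 receptor agonist. The genes were listed by name and function, with earlier results of these data known, and they stand among 21073 genes that had a tested probe on the arrays. All 32 had a probe, and 31 passed the filter on low signal. The exception was Soat1, which was well above background on 3 of 4 arrays in MCD livers before hepatectomy and on none of the 4 arrays of the group on standard chow (C).

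The mice were C57/BL6 males, 8 weeks old at the start. Each of 4 diet and drug arms was studied before and 2 weeks after removal of 70% of the liver (partial hepatectomy, PH). C mice ate chow for 3 weeks and MCD mice ate the deficient diet for 3 weeks, and both received vehicle in the last 2 weeks. The arms named C+Fc-GLP-1 (chow) and, on the deficient diet, M+Fc-GLP-1 received Fc-GLP-1, a GLP-1 receptor agonist fused to an Fc fragment, over those 2 weeks. The study's methods give 10 nmol/kg under the skin every second day, whereas a note shared by all labels speaks of an agonist of both the GLP-1 and the glucagon receptor at 4.4 mg/kg/day. The labels of the C+Fc-GLP-1 livers after PH themselves name Fc-GLP-1 before surgery and the dual agonist after it, while those of M+Fc-GLP-1 speak of an unchanged treatment, so the agent given after PH is not settled by the labels. Diet and injections went on after surgery. The study reports higher survival after PH with Fc-GLP-1 on either diet. Livers after PH thus come from survivors only, with unequal losses between the arms. Each of the 8 groups held 4 arrays, which the labels call biological replicates, and all arrays were treated as separate mice. Sample names after PH repeat those before PH with a mark for the time, and the study describes the earlier tissue as removed at surgery, so the same mice may have been sampled at both times. A fit that pairs them was run as an alternative. Because whole liver was measured, fewer cells of a type and less RNA per cell cannot be told apart.

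Cholesterol synthesis starts from acetyl-CoA, runs through mevalonate to farnesyl diphosphate, joins a pair of these into squalene, and turns the first ring sterol, lanosterol, into cholesterol in a chain of reductions and demethylations. SREBP-2, the product of Srebf2, drives these genes when membranes are poor in sterol: Scap carries it from the endoplasmic reticulum to the Golgi for cleavage, and Insig1 and Insig2 hold it back when sterol is plentiful. In the liver this pathway works beside uptake of lipoproteins, secretion of sterol into bile and storage as cholesteryl ester, and oxysterol-sensing LXR receptors are known to induce Mylip, Abca1, Abcg5 and Abcg8.

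Signals are given as log2 of the processed spot signal minus the 75th percentile of its own array. A value of 0 is thus the brightness that 75% of spots stay under, and levels are compared between arrays, never between genes. Errors after ± are standard errors of the fit (SE) for differences and SD for group levels (n = 4). A call is a limma adjusted p below 0.05, with Benjamini-Hochberg adjustment over all 21073 genes. The 32 arrays lay on 5 slides and were read on 2 scanners. Scanner 2 read the C and MCD arrays after PH, and scanner 1 read all others. C and MCD before PH shared a slide, as did both drug arms before PH and both drug arms after PH, while C and MCD after PH each had a slide of their own. Diet was therefore compared within 1 slide in 3 contrasts. For the comparisons of drug against vehicle, of MCD against C after PH, and of after against before, slide and group cannot be told apart. Scanner and group cannot be told apart either for drug against vehicle after PH. The same holds for after against before PH in C and in MCD livers. All 6 hepatocyte markers, secreted plasma proteins such as Ahsg and Fgb, were well above background on every array. Of 40 markers of liver cell types, 37 were tested, the others being Cd8a, Ncr1 and Dcn.

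The 17 enzymes of synthesis are described first by their mean. This mean log2 signal per array was 3.54, 4.23, 4.94 and 4.76 in C livers before PH and 5.09, 4.42, 5.15 and 4.34 in MCD livers. In C+Fc-GLP-1 livers it was 5.29, 5.02, 5.63 and 5.47, and in M+Fc-GLP-1 livers 4.06, 3.74, 4.76 and 4.43. With the drug, every chow liver was above every MCD liver, while C and MCD livers without it overlapped. After PH the values were 4.47, 5.06, 4.70 and 4.57 in C, 3.74, 4.0, 4.71 and 4.63 in MCD, 5.47, 5.45, 5.29 and 5.70 in C+Fc-GLP-1 and 3.49, 4.20, 4.16 and 2.85 in M+Fc-GLP-1. The 4 C+Fc-GLP-1 livers were again above all 4 M+Fc-GLP-1 livers, and here also above all C and MCD livers. A pair of arrays stood apart: replicate 1 of C before PH was the lowest of its group for 14 of the 17 enzymes, and replicate 4 of M+Fc-GLP-1 after PH for 15 of 17. Both were also highest of their group in cholangiocyte markers (log2 of summed signal, 2.32 and 3.98) and lowest in hepatocyte markers (11.86 and 11.72). Cholangiocyte markers were also high in replicate 1 of C after PH (2.81), 4 of M+Fc-GLP-1 before PH (2.73) and 1 of C+Fc-GLP-1 after PH (2.75). These arrays were lowest for 9, 1 and 2 of the 17 enzymes. The part of cell types was not tested.

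**Figure D1:**
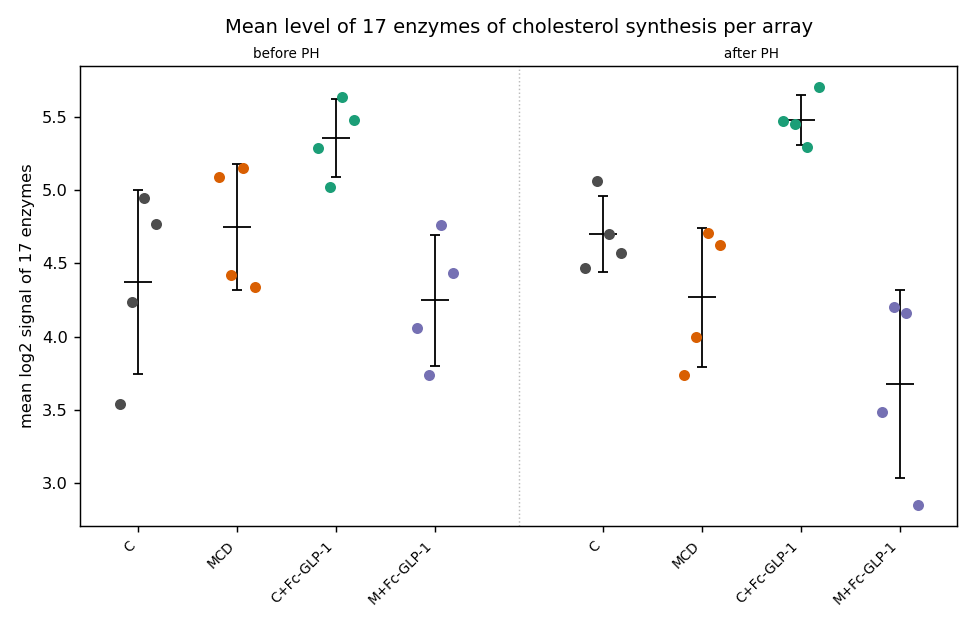
Each point is 1 array: the vertical axis is its mean log2 signal (over the array's 75th percentile) of the 17 enzymes of cholesterol synthesis, and the horizontal axis its group, with bars for the group mean and SD of 4 arrays. C+Fc-GLP-1 livers lie between 5.02 and 5.63 before PH and between 5.29 and 5.70 after PH, above the M+Fc-GLP-1 livers at both times.

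**Figure D2:**
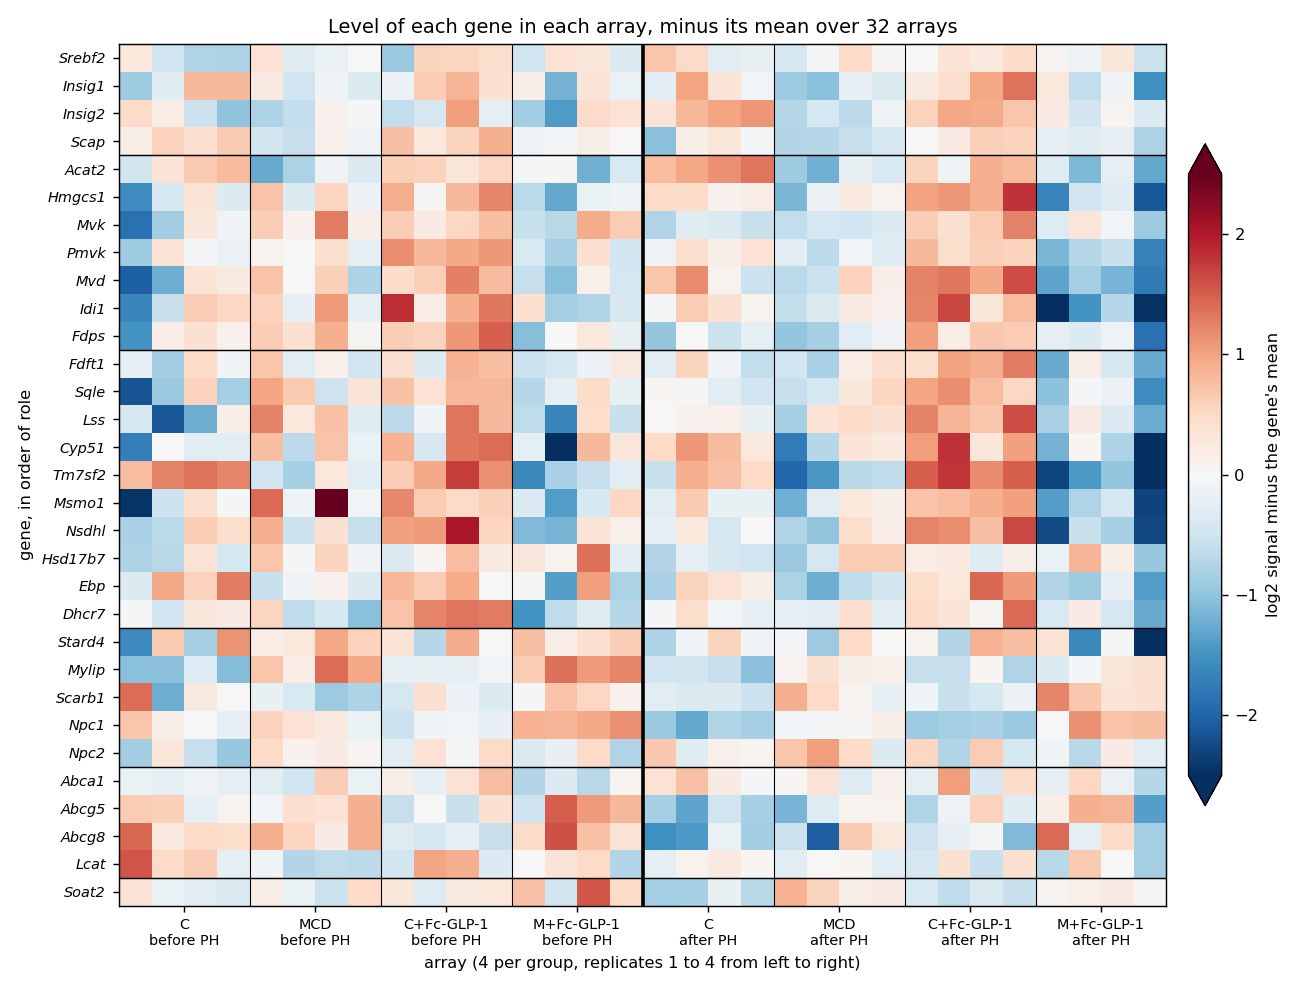
Columns are the 32 arrays and rows the 31 tested genes in order of role (regulators, mevalonate steps, squalene to cholesterol, uptake and movement in the cell, efflux and plasma esterification, storage). Colour gives log2 signal minus the gene's mean over all arrays, red above and blue below, with values beyond 2.5 drawn in the end colours. The enzymes of synthesis are mostly red in C+Fc-GLP-1 columns and mostly blue in M+Fc-GLP-1 columns after PH, whereas Npc1 runs the other way.

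Diet without drug was examined first. In MCD livers before PH, 4 enzymes of synthesis were higher than in C livers and 2 were lower. The called members, 9 of 31, were Mylip, Msmo1, Lss, Sqle and Mvk, which were higher, and Tm7sf2, Lcat, Acat2 and Scap, which were lower. Of all genes tested, 26.4% were called in this comparison, so the share of members called was near the background. The median difference was 0.68 (log2) over the 17 enzymes and -0.13 over all genes.

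Mylip, a ubiquitin ligase that sends lipoprotein receptors to degradation, showed the largest difference. Its log2 signal was 0.36, 0.38, 1.08 and 0.33 in the 4 C livers and 2.10, 1.60, 2.80 and 2.38 in the MCD livers. The groups did not overlap, and the difference was 1.68 ± 0.24 (3.21-fold, adjusted p = 1.26e-05). Tm7sf2, a reductase acting on the sterol ring after lanosterol is demethylated, was lower on the MCD diet. C livers measured 6.50, 6.97, 7.09 and 6.96 and MCD livers 5.23, 4.91, 5.99 and 5.46, again without overlap, a difference of -1.49 ± 0.36 (adjusted p = 0.00342). Its second probe was lower in MCD livers too, by -2.33.

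Msmo1, the oxidase that starts removal of methyl groups from the sterol ring, measured 3.74, 5.65, 6.62 and 6.15 in C livers and 7.61, 6.08, 8.81 and 6.13 in MCD livers. Lss, which closes the rings to form lanosterol, measured 1.44, -0.27, 0.65 and 2.01 in C livers and 3.12, 2.13, 2.60 and 1.57 in MCD livers. For both genes the ranges overlapped, and replicate 1 (Msmo1) and replicate 2 (Lss) of the C group lay lowest. The differences were 1.62 ± 0.54 (adjusted p = 0.0278) for Msmo1 and 1.39 ± 0.47 (adjusted p = 0.0277) for Lss. Sqle, the squalene epoxidase, was higher by 1.20 and Mvk, mevalonate kinase, by 1.17. Acat2, the thiolase that condenses acetyl-CoA, fell, with a difference of -0.96, as did Lcat, the plasma enzyme that esterifies cholesterol on HDL, at -1.14, and Scap, the SREBP escort, at -0.71.

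Only Mylip and Tm7sf2 stayed past the threshold in all 16 alternative settings run for this comparison. Without replicate 1 of C there were 6 calls (2 higher), and with replicate 1, 2 or 3 of MCD left out there were 4, 5 and 5; a fit to these 8 arrays alone gave 3 (1 higher). Centring each array on its median moved the median of all genes from -0.13 to 0.24 and the members' calls to 7 higher and 1 lower; of all genes called, the share that was higher went from 41.4% to 76.9%. Markers of other cells moved in the same comparison: 7 of 8 macrophage markers were called higher, with a level (log2 of the markers' summed signal) of 5.90 to 6.77 in C and 6.96 to 8.46 in MCD livers. Of 6 tested stellate cell and fibroblast markers 3 were higher (3.03 to 3.56 against 4.29 to 4.51), as were 2 of 4 neutrophil markers (1.26 to 1.52 against 2.06 to 4.43). The summed hepatocyte markers ran from 11.86 to 12.27 in C to 11.47 to 11.75 in MCD livers, with 1 of 6 called lower. Endothelial sums did not overlap (4.09 to 4.83 in C against 4.87 to 5.31 in MCD livers, 1 of 5 called higher). T and NK cell sums were 2.47 to 3.00 against 1.75 to 2.47 (1 of 4 called lower), and cholangiocyte sums 0.92 to 2.32 against 0.50 to 0.66 (0 of 4 called). Their part in these differences was not tested.

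Diet was next compared under the drug. Before PH, 7 of the 17 enzymes were lower in livers of M+Fc-GLP-1 mice than of C+Fc-GLP-1 mice and none was called higher, and 16 of 17 differences were negative, with a median of -1.18. Tm7sf2, Dhcr7, Nsdhl, Idi1, Pmvk, Hmgcs1 and Fdps fell, while Mylip and Npc1 were higher. These 9 calls of 31 members stand against 10.4% of all genes tested, whose median difference was 0.04.

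Tm7sf2 measured 6.35, 6.68, 7.47 and 6.88 in C+Fc-GLP-1 livers and 4.12, 4.92, 5.15 and 5.45 in M+Fc-GLP-1 livers. Dhcr7, the reductase of the last step to cholesterol, measured 3.66, 4.18, 4.28 and 4.25 against 1.44, 2.30, 2.64 and 2.24. Neither gene overlapped between the groups. The differences were -1.93 ± 0.36 (3.82-fold lower, adjusted p = 0.000638) and -1.93 ± 0.33 (adjusted p = 0.000218). Nsdhl, the dehydrogenase that works with Msmo1 in demethylation, measured 3.69, 3.72, 4.70 and 3.19 against 1.55, 1.50, 3.0 and 2.79. All 4 chow livers were higher for Nsdhl, and the difference was -1.62 ± 0.45 (adjusted p = 0.0196). Idi1, the isomerase of the isoprene unit, measured 7.22, 5.56, 6.25 and 6.69 against 5.76, 4.51, 4.62 and 4.97, where replicate 1 of M+Fc-GLP-1 lay inside the chow range. Its difference was -1.46 ± 0.45 (adjusted p = 0.0359).

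The differences were -1.31 for Pmvk, phosphomevalonate kinase, -1.30 for Hmgcs1, the cytosolic HMG-CoA synthase, and -1.18 for Fdps, which makes farnesyl diphosphate. The 5 members Pmvk, Tm7sf2, Dhcr7, Mylip and Npc1 were called in all 16 alternative settings. Nsdhl missed the threshold when its 2 probes were averaged (adjusted p = 0.107). Its dimmer probe differed by -0.43. Without replicate 3 of C+Fc-GLP-1 there were 5 calls. Centred on the array median, which moved the median of all genes to -0.22 and the share of all calls that were higher from 51.6% to 24.5%, there were 2 higher and 10 lower calls among the members. The summed hepatocyte markers overlapped between the groups (12.01 to 12.21 against 11.75 to 12.35, 0 of 6 called), as did those of macrophages (6.31 to 7.14 against 5.61 to 6.93, 1 of 8 lower). Of the stellate cell and fibroblast markers 1 of 6 was lower, with overlapping sums (3.50 to 4.06 against 2.99 to 3.63). The summed endothelial markers did not overlap (4.48 to 5.10 against 5.37 to 5.70, 1 of 5 higher). The part of these markers was not tested.

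In the same contrast after PH, 15 of the 17 enzymes were lower on the MCD diet, all 17 differences were negative, and their median was -1.63. Only Mvk (-0.97 ± 0.37, adjusted p = 0.0883) and Hsd17b7, a ketosteroid reductase (-0.10 ± 0.38, adjusted p = 0.912), were not called. The authors' values did call Mvk lower (-1.015). They also called the regulator Insig2 lower (-0.914), as did a fit to the arrays compared (-0.92). With Insig1, Scap and Npc1, 18 of 31 members were called, against 12.8% of all genes tested, for which the median difference was -0.01.

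Tm7sf2 again led. Its log2 signal was 7.23, 7.52, 6.91 and 7.23 in the 4 C+Fc-GLP-1 livers and 3.44, 4.29, 4.77 and 3.20 in the M+Fc-GLP-1 livers, so that the highest of the latter lay below the lowest of the former. The difference was -3.30 ± 0.36, a 9.82-fold lower signal (adjusted p = 4.35e-07). Idi1 measured 6.59, 7.04, 5.66 and 6.13 in C+Fc-GLP-1 and 2.86, 3.87, 4.65 and 2.90 in M+Fc-GLP-1 livers. No arrays overlapped, and the difference was -2.79 ± 0.45 (6.9-fold lower, adjusted p = 9.2e-05). Nsdhl measured 3.87, 3.82, 3.42 and 4.31 against 0.43, 2.11, 1.82 and 0.37, with replicates 1 and 4 of the MCD arm far below the others. It differed by -2.67 ± 0.45 (adjusted p = 0.000148). Mvd, the decarboxylase that makes isopentenyl diphosphate, measured 3.93, 4.01, 3.64 and 4.32 against 1.36, 1.86, 1.53 and 0.93. It also showed no overlap, with a difference of -2.55 ± 0.43 (adjusted p = 0.000149).

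The remaining enzymes called after PH differed by -2.35 (Hmgcs1), -2.25 (Cyp51, the lanosterol demethylase), -2.08 (Msmo1), -1.65 (Lss), -1.63 (Pmvk), -1.60 (Ebp, the sterol isomerase), -1.60 (Fdft1, squalene synthase), -1.55 (Sqle), -1.27 (Fdps), -1.27 (Acat2) and -1.03 (Dhcr7). Msmo1 and Lss, higher on the MCD diet without drug before PH, were among those lower here. Without drug after PH their diet differences were -0.27 (Msmo1) and 0.08 (Lss), neither of them called. The calls that held in all 16 alternative settings were 10 of the 18: Hmgcs1, Pmvk, Mvd, Idi1, Fdft1, Tm7sf2, Msmo1, Nsdhl, Ebp and Npc1. Without replicate 4 of M+Fc-GLP-1, the array with the lowest enzyme levels, 11 members were called, 10 of them lower. That array also differed from the other replicates in summed cholangiocyte markers (3.98 against 0.35 to 0.59). The same held for stellate cell and fibroblast markers (5.81 against 3.61 to 4.60) and hepatocyte markers (11.72 against 12.22 to 12.45). The part of these in its enzyme levels was not tested. Hepatocyte markers again overlapped (11.92 to 12.55 against 11.72 to 12.45, 0 of 6 called), as did macrophage markers (7.60 to 8.54 against 7.48 to 7.97, 1 of 8 lower) and T and NK cell markers (2.49 to 3.14 against 2.00 to 2.53, 1 of 4 lower), and their part was not tested. As noted, the labels name the agent of these arms after PH in different ways. The median of the 17 enzymes kept its sign in all alternative settings run in each of these 3 diet comparisons: it ran from 0.27 (without replicate 1 of C) to 1.05 (centred on the array median) without drug, from -1.44 to -1.05 with drug before PH, and from -1.88 to -1.41 with drug after PH.

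**Figure D3:**
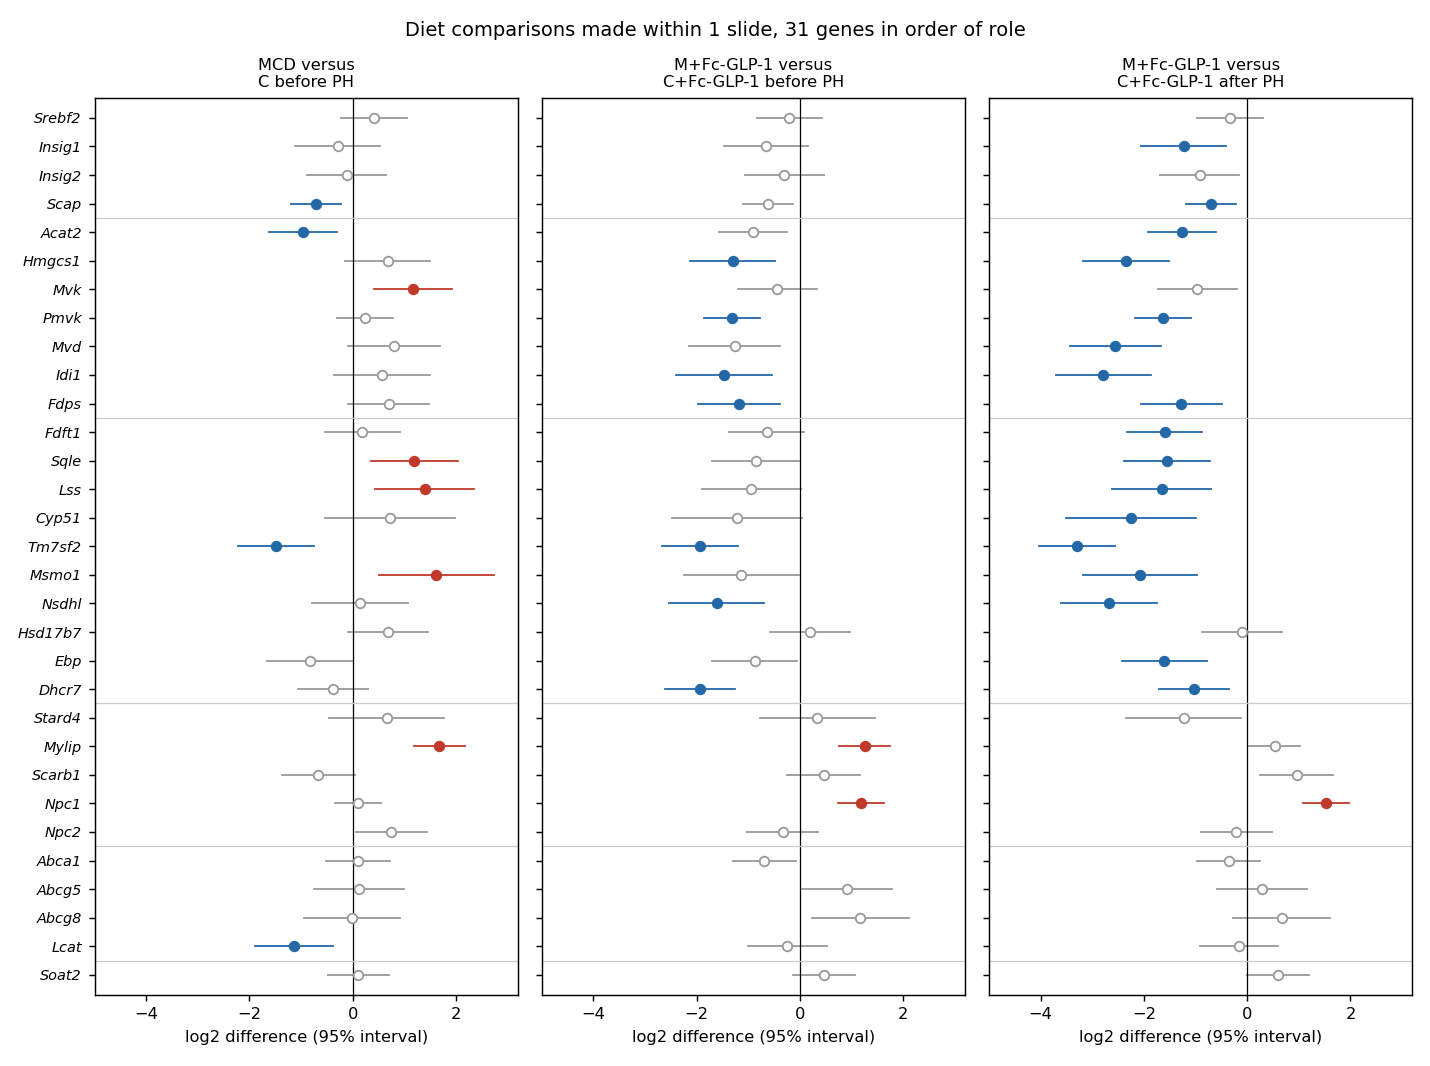
Points are log2 differences between diets (MCD minus chow) for the 31 tested genes, in order of role from top to bottom with lines between roles, and bars are 95% intervals of the limma fit. Filled points passed the threshold (red higher, blue lower) and open points did not. Calls number 9 in the left and middle panels and 18 in the right panel, where 17 are lower.

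Promoters of 4 enzymes are shown, since SREBP-2 is known to act at sterol regulatory elements together with NF-Y. Tm7sf2 and Idi1 had the largest differences under drug after PH, Msmo1 the largest positive one among enzymes without drug before PH, and Hmgcs1 the only match to the first pattern among the members; they were chosen after these were seen. They are the 250 bases before the RefSeq start (GRCm38.p6), written 5′ to 3′ on the gene's strand, with capitals for TCACNCCAC (a letter pattern of the sterol regulatory element) and CCAAT (NF-Y), each on either strand. The windows are chr13:119690101-119690350 for Hmgcs1 and chr13:8885356-8885605 for Idi1, on the plus strand, and chr8:64733579-64733828 for Msmo1 and chr19:6067851-6068100 for Tm7sf2, on the minus strand.
Hmgcs1: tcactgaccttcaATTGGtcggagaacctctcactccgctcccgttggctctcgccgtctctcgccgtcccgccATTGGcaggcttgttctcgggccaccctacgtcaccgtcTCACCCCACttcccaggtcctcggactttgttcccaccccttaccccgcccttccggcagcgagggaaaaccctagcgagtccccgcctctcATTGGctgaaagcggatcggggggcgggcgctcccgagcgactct
Idi1: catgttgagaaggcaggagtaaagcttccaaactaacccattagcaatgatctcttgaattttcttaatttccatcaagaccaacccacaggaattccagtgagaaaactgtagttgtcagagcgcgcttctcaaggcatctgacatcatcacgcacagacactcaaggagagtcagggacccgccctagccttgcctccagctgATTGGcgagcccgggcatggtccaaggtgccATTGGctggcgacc
Msmo1: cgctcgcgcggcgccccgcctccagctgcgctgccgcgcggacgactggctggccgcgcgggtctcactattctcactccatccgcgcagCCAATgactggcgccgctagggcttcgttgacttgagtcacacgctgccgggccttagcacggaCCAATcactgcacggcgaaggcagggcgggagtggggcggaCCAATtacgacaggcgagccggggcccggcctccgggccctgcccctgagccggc
Tm7sf2: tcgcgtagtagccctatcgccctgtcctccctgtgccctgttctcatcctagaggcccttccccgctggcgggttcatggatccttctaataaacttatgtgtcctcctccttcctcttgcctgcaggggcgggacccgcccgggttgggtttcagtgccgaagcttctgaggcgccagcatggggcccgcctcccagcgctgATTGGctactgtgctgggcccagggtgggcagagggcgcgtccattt
The Hmgcs1 window holds 1 match to TCACNCCAC, and Idi1, Msmo1 and Tm7sf2 hold CCAAT or its reverse complement ATTGG alone. Windows of 300 bases, which add the 50 bases from the start on, were found for 25 of the 32 genes (not for Fdps, Fdft1, Sqle, Stard4, Scarb1, Npc1 and Soat2). CCAAT was in at least 1 window of 22 of these 25 (88%), and in 13 of 14 enzymes of synthesis, compared with 41.1% of 27025 genes in the table. TCACNCCAC was in 1 of the 25 (4%), compared with 1.44% of all genes. The patterns can share no more than an end letter, and a match describes the sequence only.

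The difference between the diet effects with and without drug was tested before PH, as an interaction in which a constant slide difference cancels. It was called for 9 of 31 members, against 6.15% of all genes tested. There were 8 enzymes with negative interactions, meaning that the diet difference was lower with drug than without: Msmo1, Lss, Mvd, Sqle, Hmgcs1, Fdps, Pmvk and Dhcr7. Npc1 had a positive one. The median over the 17 enzymes was -1.76 and over all genes 0.15.

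Msmo1 had the largest interaction. To the values given above for C and MCD livers are added 7.39, 6.82, 6.68 and 6.78 in C+Fc-GLP-1 and 5.84, 4.79, 5.78 and 6.71 in M+Fc-GLP-1 livers. Its diet difference was thus 1.62 without drug and -1.14 with it, an interaction of -2.76 ± 0.77 (adjusted p = 0.033). Lss measured 1.22, 1.78, 3.21 and 2.68 with drug on chow and 1.24, 0.24, 2.32 and 1.32 with drug on the MCD diet. The diet difference was 1.39 without and -0.94 with drug, and the interaction -2.34 ± 0.66 (adjusted p = 0.0351). The others were -2.06 for Mvd, -2.06 for Sqle, -1.98 for Hmgcs1, -1.88 for Fdps, -1.55 for Pmvk, -1.55 for Dhcr7 and 1.08 for Npc1.

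Each of these 9 interactions lost its call in at least 1 of 24 alternative settings, and none changed sign. Without replicate 1 of C, which was lowest for most enzymes, 2 calls were left. Leaving out replicate 2 of C gave 5, replicate 1, 2 or 3 of MCD 2, 5 and 2, replicate 3 or 4 of C+Fc-GLP-1 3 and 2, and replicate 1, 2 or 4 of M+Fc-GLP-1 4, 5 and 3. Normexp with quantile normalization gave 5 calls, the authors' values 2, no filter on dim probes 1, a fit to these 16 arrays alone 2, and centring on the array median 14, all lower, with the median of all genes at -0.47 and the share of all calls that were positive at 5.81% in place of 58.3%. Pmvk lost its call in 1 setting only (adjusted p = 0.0508 with the authors' values). The median over the 17 enzymes was negative throughout, from -2.38 to -1.52. In the same interaction 5 of 8 macrophage, 2 of 4 neutrophil and 1 of 6 stellate cell and fibroblast markers were negative calls. The summed macrophage level, given above for each of these groups, reached its highest values before PH in MCD livers, and its part in the interaction was not tested. Whether the diet difference under drug changed between the times before and after PH was tested too. No member was called by limma, against 0.0949% of all genes tested, and no other setting called one. An unadjusted limma p below 0.05 was found for 4 of 31 members, against 9.7% of all genes.

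**Figure D4:**
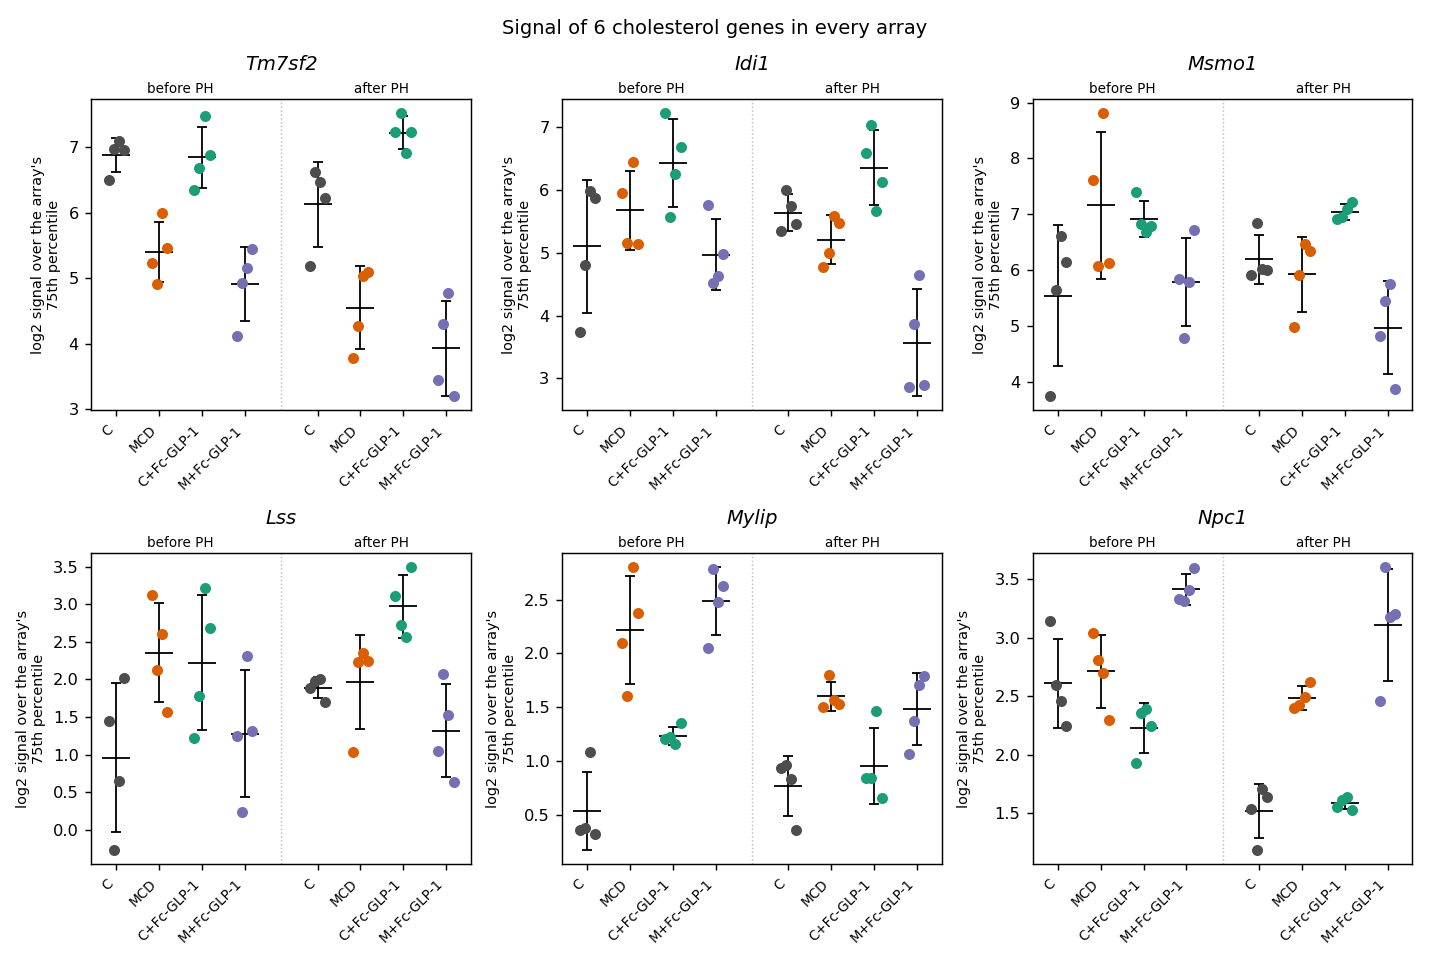
Points are single arrays and bars the mean and SD of 4 arrays, for 6 genes, with log2 signal over the array's 75th percentile on the vertical axis and the groups on the horizontal axis. Tm7sf2 is lower on the MCD diet in all 4 pairs of arms, Msmo1 and Lss have higher means on the MCD diet without drug before PH and lower means with it, and Mylip and Npc1 are higher on the MCD diet under the drug before PH.

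Between drug and vehicle on chow, 2 enzymes were higher with the drug before PH. Sqle measured 2.66, 3.89, 5.40 and 3.97 in C and 5.55, 5.19, 5.64 and 5.65 in C+Fc-GLP-1 livers. Replicate 3 of C lay within the treated range and replicate 1 far below it. The difference was 1.52 ± 0.41 (adjusted p = 0.0453). Pmvk measured 5.31, 6.56, 6.16 and 6.04 in C and 7.36, 7.0, 7.14 and 7.28 in C+Fc-GLP-1 livers, which did not overlap. It differed by 1.18 ± 0.26 (adjusted p = 0.0196). Of all genes tested, 2.11% were called. Of the 17 enzymes 15 were higher in the treated livers (median 1.18), against 46.7% of all genes. An unadjusted limma p below 0.05 was found for 12 of the 17, against 18.1% of all genes. Deviations of the enzymes from their group means were correlated, from -0.21 (Acat2 and Lss) to 0.82 (Cyp51 and Hmgcs1). Counts of enzymes, here and in the other comparisons, are therefore not counts of independent genes. No member was called without replicate 1 of C or in a fit to these 8 arrays alone, 4 were called without replicate 3 of C, and 1 each without replicate 2 of C or any 1 of the C+Fc-GLP-1 arrays. Other normalizations gave more calls: 6 higher and 2 lower with normexp and quantile normalization, 9 higher when centred on the array median, and 5 higher and 1 lower with the authors' values, with Hmgcs1 and Mvd among those added in all 3. Centring raised the share of all calls that were higher from 46.4% to 89.8%. After PH limma called no member between C+Fc-GLP-1 and C, against 2.06% of all genes. There, 10 members had an unadjusted limma p below 0.05, against 14.7% of all genes, and the authors' values called 1 (Mvk). With drug, 16 of 17 enzymes were higher (median 0.90), against 53.7% of all genes. That median was 0.46 with the authors' values and 0.48 with normexp and quantile normalization.

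On the MCD diet the drug comparison pointed down for the enzymes and was mostly not called. Before PH, 15 of 17 differences (drug minus vehicle) were negative, with a median of -0.49 and none called; the median was -0.86 with normexp and quantile normalization, -0.85 with the authors' values, -0.81 when centred on the array median and -0.74 without replicate 3 of M+Fc-GLP-1. The 1 member called, against 7.22% of all genes, was Npc1, the lysosomal membrane protein that exports cholesterol. Its signal was 3.04, 2.81, 2.70 and 2.29 in MCD and 3.33, 3.31, 3.41 and 3.60 in M+Fc-GLP-1 livers, without overlap, a difference of 0.70 ± 0.22 (adjusted p = 0.0461). This call was lost in 13 of 16 alternative settings, among them leaving out any 1 of the 8 arrays. The authors' values called Tm7sf2 instead, at -1.05 (limma adjusted p = 0.0346), and leaving out replicate 2 of M+Fc-GLP-1 called Soat2 instead. Normexp with quantile normalization added Scap (0.65) and Scarb1 (0.95), both higher with the drug. Centring on the array median turned the median of all genes from 0.10 to -0.22 and the share of calls that were higher from 61.4% to 16.3%, with no member called. Macrophage markers were lower with the drug here (5 of 8 called, summed level 6.96 to 8.46 against 5.61 to 6.93), as were 1 of 6 stellate cell and fibroblast markers (4.29 to 4.51 against 2.99 to 3.63) and 2 of 4 neutrophil markers, with 1 higher (2.06 to 4.43 against 1.11 to 1.98). Of the hepatocyte markers 1 of 6 was higher (11.47 to 11.75 against 11.75 to 12.35), and the summed endothelial markers did not overlap (4.87 to 5.31 against 5.37 to 5.70, 0 of 5 called). Their part was not tested. After PH, Idi1 was the 1 member called, against 6.5% of all genes, with 4.77, 5.0, 5.59 and 5.48 in MCD livers and the M+Fc-GLP-1 values given above. All treated livers lay below all untreated ones, and the difference was -1.64 ± 0.45 (adjusted p = 0.0281). No call was left without replicate 2, 3 or 4 of MCD, without replicate 4 of M+Fc-GLP-1, without the filter or in a fit to the 8 arrays alone, and without replicate 1 of M+Fc-GLP-1 Npc1 was called in its place, higher. The median of the 17 enzymes after PH was -0.65, with 16 negative, and without replicate 4 of M+Fc-GLP-1 it was -0.36, with 12 negative. Summed T and NK cell markers did not overlap after PH (2.78 to 3.19 against 2.00 to 2.53, 0 of 4 called). Neutrophil markers were lower with the drug after PH (3 of 4 called, 5.61 to 7.10 against 2.77 to 5.20), as were 2 of 8 macrophage markers (7.81 to 8.95 against 7.48 to 7.97), while 1 of 6 hepatocyte (11.55 to 11.85 against 11.72 to 12.45) and 1 of 4 cholangiocyte markers (-0.54 to 0.55 against 0.35 to 3.98) were higher. Their part was not tested.

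Between C and MCD livers after PH, 6 members were called, against 12.1% of all genes. Acat2 and Tm7sf2 fell most. Acat2 measured 5.87, 6.06, 6.24 and 6.44 in C and 4.22, 3.91, 4.92 and 4.72 in MCD livers, and Tm7sf2 5.18, 6.62, 6.47 and 6.23 and 3.78, 4.27, 5.04 and 5.09. Both separated the groups, with differences of -1.71 ± 0.32 (adjusted p = 0.000609) and -1.58 ± 0.36 (adjusted p = 0.00436). Insig2, which holds SREBP in the endoplasmic reticulum, was lower (-1.30), and Mylip (0.83), Npc1 (0.97) and Soat2, the liver enzyme that stores cholesterol as ester (1.09), were higher. Normexp with quantile normalization split the calls into 2 higher and 4 lower, and the authors' values into 3 and 4. Neutrophil markers were higher in MCD livers (2 of 4 called, 2.90 to 4.74 against 5.61 to 7.10) and stellate cell and fibroblast markers lower (2 of 6 called, 4.55 to 6.89 against 3.63 to 4.12). The cholangiocyte markers had a median difference of -1.35 with 0 of 4 called (0.27 to 2.81 against -0.54 to 0.55). Their part was not tested. The other 15 enzymes were not called. Of these, Pmvk was called lower with normexp and quantile normalization (-1.14) and with the authors' values (-1.095). The median over 17 was -0.27. It moved to -0.071 without replicate 1, -0.45 without replicate 3 and -0.40 without replicate 4 of MCD, to -0.090 without replicate 2 of C, and to -0.14 when centred on the array median. Acat2, Tm7sf2 and Npc1 kept their calls in all 16 alternative settings. With drug, the same diet contrast after PH gave -1.27 for Acat2 and -3.30 for Tm7sf2. Whether these differ from the values without drug was not tested, since slide and group cannot be told apart there.

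Few members differed between the times. In C livers 2 weeks after PH, compared with before, Abcg8 and Npc1 were lower, 2 of 31 members against 14% of all genes. Abcg8 forms with Abcg5 the transporter that secretes sterol into bile. It measured 1.38, 0.18, 0.43 and 0.39 before and -1.58, -1.49, -0.22 and -0.92 after PH, without overlap, a difference of -1.65 ± 0.46 (adjusted p = 0.0167). Npc1 measured 3.14, 2.60, 2.46 and 2.25 before and 1.54, 1.18, 1.71 and 1.64 after PH. Each value after PH was below every value before it, and the difference was -1.09 ± 0.22 (adjusted p = 0.00152). Normexp with quantile normalization gave 4 higher and 3 lower calls here, centring on the median 1 higher and 2 lower, and averaging the probes of a gene 2 and 2 (Srebf2 and Insig2 higher); without replicate 3 of C before PH there were 4 calls, and without replicate 1 of C after PH 1. All 8 macrophage markers were higher after PH in C livers (5.90 to 6.77 before, 7.08 to 9.22 after), as were 3 of 6 stellate cell and fibroblast markers (3.03 to 3.56 and 4.55 to 6.89), 2 of 4 neutrophil markers (1.26 to 1.52 and 2.90 to 4.74) and 1 of 4 T and NK cell markers (2.47 to 3.00 and 2.76 to 3.58). Their part was not tested. In MCD livers limma called 0 members over time, against 9.43% of all genes. An unadjusted limma p below 0.05 was found for 7 members, against 23.5% of all genes. A fit to those 8 arrays alone called Mvk and Fdps, and leaving out replicate 2 of MCD before PH called Mylip. In C+Fc-GLP-1 livers 0 were called, against 0.835% of all genes, and Scap and Npc1 were called with normexp and quantile normalization. There, 2 members had an unadjusted limma p below 0.05, against 15.3% of all genes. In M+Fc-GLP-1 livers Mylip was the 1 call, against 1.71%. It measured 2.05, 2.79, 2.48 and 2.63 before and 1.06, 1.37, 1.70 and 1.80 after PH, with no overlap, a difference of -1.0 ± 0.24 (adjusted p = 0.0284), and lost its call in 9 of 16 alternative settings, including without replicate 2, 3 or 4 before PH, without replicate 1 or 2 after PH, and when livers of the same number before and after PH were taken as 1 mouse. Neutrophil markers were higher after PH in this arm (2 of 4 called, 1.11 to 1.98 and 2.77 to 5.20), as were 1 of 8 macrophage (5.61 to 6.93 and 7.48 to 7.97) and 1 of 6 stellate cell and fibroblast markers (2.99 to 3.63 and 3.61 to 5.81), with 1 of 5 endothelial markers lower (5.37 to 5.70 and 4.41 to 5.12). Their part was not tested.

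Among regulators, Srebf2 was called in none of the 14 comparisons, and in 1 of them (C after against before PH) when its probes were averaged. Its log2 signal was 0.17, -0.59, -0.85 and -0.90 in C, 0.27, -0.39, -0.26 and -0.10 in MCD, -1.03, 0.47, 0.45 and 0.35 in C+Fc-GLP-1 and -0.59, 0.27, 0.18 and -0.43 in M+Fc-GLP-1 livers before PH. After PH it was 0.60, 0.38, -0.38 and -0.27 in C, -0.52, -0.12, 0.36 and -0.08 in MCD, -0.11, 0.24, 0.14 and 0.36 in C+Fc-GLP-1 and -0.03, -0.23, 0.19 and -0.64 in M+Fc-GLP-1 livers. The ranges of all 8 groups overlapped with each other, and replicate 1 of C+Fc-GLP-1 before PH had the lowest value of all 32 arrays. In the diet contrast under drug after PH, where 15 enzymes were called, the 95% interval of the Srebf2 difference was -0.97 to 0.30. Array signal reports mRNA, whereas SREBP-2 is also controlled by cleavage, which was not measured.

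Insig1, itself a known SREBP target, measured 1.0, 1.58, 2.69 and 2.71 in C, 2.11, 1.39, 1.78 and 1.55 in MCD, 1.75, 2.53, 2.74 and 2.28 in C+Fc-GLP-1 and 2.05, 0.70, 2.21 and 1.72 in M+Fc-GLP-1 livers before PH. After PH it measured 1.61, 2.88, 2.21 and 1.82 in C, 0.99, 0.84, 1.69 and 1.54 in MCD, 2.11, 2.31, 2.86 and 3.24 in C+Fc-GLP-1 and 2.15, 1.28, 1.79 and 0.36 in M+Fc-GLP-1 livers. It was lower on the MCD diet under the drug after PH, where replicate 1 of the MCD arm overlapped the chow range (-1.23 ± 0.40, adjusted p = 0.04). That call was lost in 8 of 16 alternative settings. Scap was lower on the MCD diet without drug before PH (5.99, 6.40, 6.23 and 6.48 against 5.37, 5.24, 5.93 and 5.70) and with drug after PH (5.82, 6.03, 6.43 and 6.40 against 5.62, 5.53, 5.63 and 5.06). In both cases the groups were separate, and the differences were -0.71 ± 0.24 (adjusted p = 0.0266) and -0.71 ± 0.24 (adjusted p = 0.0463). The first of these calls was lost in 6 of 16 alternative settings (adjusted p = 0.286 when centred on the array median). The second was lost in 9 of 16, among them leaving out any of 7 of the 8 arrays. With drug before PH the Scap difference was -0.62, without overlap and not called. Normexp with quantile normalization (-0.80), median centring (-0.87) and the authors' values (-0.84) called it there.

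Among genes of uptake, transport and storage, Npc1 was called in 6 and Mylip in 4 of the 14 comparisons. Mylip was higher on the MCD diet with drug before PH (1.20, 1.22, 1.16 and 1.35 against 2.05, 2.79, 2.48 and 2.63) and did not overlap, a difference of 1.25 ± 0.24 (adjusted p = 0.000907). After PH the difference under drug was 0.53 ± 0.24 (adjusted p = 0.16). Npc1 on the drug slides measured 1.92, 2.35, 2.39 and 2.25 on chow before PH, and 1.55, 1.61, 1.64 and 1.53 on chow and 2.45, 3.61, 3.18 and 3.20 on the MCD diet after PH. Each M+Fc-GLP-1 liver exceeded each C+Fc-GLP-1 liver at both times, with differences of 1.18 ± 0.22 (adjusted p = 0.000479) and 1.53 ± 0.22 (adjusted p = 1.46e-05). Without drug before PH the diet difference in Npc1 was 0.10 ± 0.22, with a 95% interval of -0.34 to 0.54.

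Scarb1, the HDL receptor, Abca1, which loads cholesterol onto apolipoprotein A-I, Abcg5, Npc2, the soluble partner of Npc1, and Stard4, a sterol carrier of the cytosol, were called in none of the 14 comparisons, although each passed the threshold in at least 1 alternative setting. Npc2 was called higher in MCD than in C livers before PH with normexp and quantile normalization (1.25), median centring (1.11), the authors' values (1.27) and without replicate 2 of C (1.02). Scarb1 was called lower in MCD than in C livers before PH with normexp and quantile normalization (-0.92) and the authors' values (-0.92). Leaving out replicate 2 of C also called it lower there (-1.11). Abca1 was called in the interaction before PH only with median centring (-1.42), and Stard4 under drug after PH only with averaged probes (-1.26). Under drug after PH, Scarb1 differed between diets by 0.96 ± 0.35 (adjusted p = 0.0664) and Stard4 by -1.23 ± 0.54 (adjusted p = 0.145). Abcg8 differed by 1.17 ± 0.46 under drug before PH (adjusted p = 0.1). It was called there with the authors' values (0.86) and in a fit to the arrays compared (1.17). Between C+Fc-GLP-1 and C before PH, Abcg8 was called lower with the authors' values (-1.23) and with normexp and quantile normalization (-1.28). Lcat was called in 1 comparison and Soat2 in 1, both given above. Soat1, the esterifying enzyme of most other tissues, was well above background on 10 of 32 arrays, 3 of them C+Fc-GLP-1 after PH, and was not tested.

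Of 31 further genes of the pathway, 30 were tested, all but Npc1l1. MCD against C before PH called 4 higher and 6 lower, against 26.4% of all genes, with Cyp7b1 (-2.77) and Cyp27a1 (-2.18), hydroxylases of oxysterol and bile acid synthesis, at the low end, and Vldlr (1.72), a receptor for triglyceride-rich lipoproteins, at the high end. Srebf1, the SREBP of fatty acid synthesis, followed with -1.69 (adjusted p = 0.00024). Under drug before PH 2 were higher and 4 lower, against 10.4% of all genes: Cyp7b1 (-2.34), Vldlr (2.24), the hepatic lipase Lipc (-1.42) and Cyp27a1 (-1.26) differed most. After PH under drug 4 were higher and 4 lower, against 12.8%, among them Cyp7b1 (-3.67), Vldlr (2.89), Lipc (-1.96) and Stard5, a sterol carrier (1.66). No gene of this list was called by limma in the interaction of diet and drug before PH, against 6.15% of all genes. An unadjusted limma p below 0.05 was found for 2 of them, against 23.7% of all genes.

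Further probes that passed the filter were available for 10 of the 31 members, 11 probes in all. Their differences had the same sign as the probe used in 10 of 11 cases without drug before PH, in 9 of 11 with drug before PH and in 11 of 11 with drug after PH. The exceptions were Stard4 without drug (0.66 against -0.0040), and Fdft1 (-0.64 against 0.061) and Stard4 (0.34 against -0.96) with drug before PH, none of them a called member. Agreement was lower in some other comparisons. It was 5 of 11 for C+Fc-GLP-1 and 7 of 11 for C livers after against before PH, and 8 of 11 for M+Fc-GLP-1 against MCD after PH.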

How the data were processed

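Total RNA of 32 mouse livers was hybridised with Cy3 to 1-colour Agilent arrays. The authors deposited scanner files of Feature Extraction 10.7.3.1, whose processed signal is an intensity on a linear scale, and a table of log2 values normalized by the authors, used only as an alternative; per the labels limma served in their processing, with no version given. Here log2 of the processed signal was reduced by each array's 75th percentile over 59305 non-control spots (intensity 209 to 778). Spots flagged as outliers were left out, with 426 probes lost. A probe was kept if at least 1 group had it well above background throughout, on 4 of 4 arrays (28937 probes), and the brightest stood for a gene. RefSeq accessions named 27656 of 55681 probes, and the file's name was used for the rest. Between 36.3% and 69.2% of probes were well above background per array; array number limits the precision.

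One limma 3.58.1 fit in R 4.3.3 over all 32 arrays estimated 8 group means, and 14 contrasts were tested. The labels call the arrays of a group biological replicates. Members, lists, named genes and motifs were chosen with earlier results of these data known. Every called member is named, and values in each array are given for Srebf2, Insig1, the 4 largest calls in each diet comparison within 1 slide and the 2 largest in each other one; Scap was added after its values were seen. Alternatives were normexp (offset 50) with quantile normalization, centring on the array median, the percentile over probes above background on all arrays, the authors' values (within a time point), no filter, averaged probes, only the arrays compared, a replicate block, pairs of the same number before and after PH (added later), and leaving out each array. The scripts were tested on simulated data.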

Additional observations from a re-analysis of the deposited data

Results flagged for a closer look

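Within groups of 4 arrays, a value was picked out when its gap to the nearest other array was large for the group's range. This happened in 11 of 248 groups (31 genes in 8 groups), and chance picks about 1 in 20. Low values were Srebf2 at -1.03 in replicate 1 of C+Fc-GLP-1 before PH, Fdps at 5.50 and Cyp51 at -0.37 in replicate 1 of C before PH, Fdps at 5.11 in replicate 4 of M+Fc-GLP-1 after PH, Lss at 1.03 in replicate 1 of MCD after PH, Dhcr7 at 3.66 in replicate 1 of C+Fc-GLP-1 before PH and Soat2 at 4.30 in replicate 2 of C+Fc-GLP-1 before PH. High values were Msmo1 at 6.85 in replicate 2 of C after PH, Dhcr7 at 3.36 in replicate 3 of MCD after PH, Mylip at 1.08 in replicate 3 of C before PH and Lcat at 4.70 in replicate 1 of MCD before PH.

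The diet difference before PH was tested to differ with and without Fc-GLP-1 for 9 members. The interactions (log2) were -1.98 for Hmgcs1, -1.55 for Pmvk, -2.06 for Mvd, -1.88 for Fdps, -2.06 for Sqle, -2.34 for Lss, -2.76 for Msmo1, -1.55 for Dhcr7 and 1.08 for Npc1.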

How the results depend on the processing

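Of 58 member calls in the 14 comparisons, 21 held in every alternative setting and 37 were lost in at least 1; none reversed. Counts of called members moved by over 1.5 times in 12 of the 14 comparisons, and the cause was not tested. Normexp with quantile normalization gave 5 calls for the diet by drug interaction before PH (9 in the report), 8 for C+Fc-GLP-1 against C before PH (2), 3 for M+Fc-GLP-1 against MCD before PH (1), and after against before PH 7 in C (2), 0 in M+Fc-GLP-1 (1) and 2 in C+Fc-GLP-1 livers (0). Centring on the array median gave 14 for the interaction, 9 for C+Fc-GLP-1 against C before PH, and 0 both for M+Fc-GLP-1 against MCD before PH and for M+Fc-GLP-1 after against before PH. The percentile over probes above background gave 0 for M+Fc-GLP-1 against MCD before PH. The authors' values gave 2 for the interaction, 6 for C+Fc-GLP-1 against C before PH and 1 after PH (0). Without the filter the interaction had 1, C+Fc-GLP-1 against C before PH 1 and M+Fc-GLP-1 against MCD after PH 0 (1). Averaged probes gave 4 for C after against before PH. Only the arrays compared gave 3 for MCD against C before PH (9), 2 for the interaction, 0 for C+Fc-GLP-1 against C before PH, 0 for M+Fc-GLP-1 against MCD at both times, 2 for MCD after against before PH (0) and 0 for M+Fc-GLP-1 after against before PH.

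Leaving out 1 array at a time gave 4 to 7 calls for MCD against C before PH, 5 to 10 and 11 to 16 for the diet contrast under drug before and after PH, 2 to 10 for the interaction, 0 to 4 for C+Fc-GLP-1 against C before PH, 1 to 4 for C after against before PH, 4 to 7 for MCD against C after PH, and 0 to 1 for M+Fc-GLP-1 against MCD at either time and for after against before PH in MCD and in M+Fc-GLP-1 livers; the other 3 comparisons stayed at 0. Whether replicate numbers pair the arrays is not settled. Residuals correlated at 0.0173 on average between arrays of the same number (-0.22 to 0.516) and at -0.0053 otherwise, yet 18 of 32 arrays correlated best with an array of their own number, which 7 of the 28 arrays in other groups carry. With the replicate block, the call of Npc1 in M+Fc-GLP-1 against MCD before PH was lost (0 calls) and Tm7sf2 was called in C+Fc-GLP-1 against C after PH (1 call), and in the interaction Mvk was gained and Dhcr7 lost. Livers of the same number in an arm before and after PH correlated at -0.047 to 0.0876 over 16 pairs, and 3 of 16 matched their own number best. Taking each such pair as 1 mouse, a replicate block within each arm chosen after seeing the data, left 0 calls in M+Fc-GLP-1 livers after against before PH (1) and the other counts over time as they were. Slide as a random block could not be fitted, since each slide holds whole groups.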
